A study of Mus musculus with 9 samples.

Results

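Integrins are the receptors that hold a cell to its matrix, and focal adhesion adaptors are the proteins that gather on the inner side of clustered integrins and couple them to actin. The genes were taken from a fixed list of 36 names, 20 integrin chains (12 alpha and 8 beta) and 16 adaptors. This list, like those set beside it, was chosen with earlier results of these data known, so shares given beside all genes are descriptive. Each gene was represented by the probe set with exactly 1 gene symbol that had the highest mean over all 9 arrays. On that rule 33 of the 36 were measured, 11 alpha chains, 8 beta chains and 14 adaptors, out of 22180 genes in all. The alpha chain gene Itga10 and the focal adhesion kinase gene Ptk2 had no probe set with their symbol in the annotation used. Ilk, which encodes integrin-linked kinase, lay only on 3 probe sets shared with other symbols, so no value is given for it.

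An integrin is a dimer of 1 alpha and 1 beta chain, and the alpha chain largely sets which matrix protein is bound. Talins and kindlins bind the tail of the beta chain and switch the receptor on, the complex of integrin-linked kinase, PINCH and parvin links it to actin, and vinculin, paxillin, zyxin and tensins join as the adhesion matures. Podocytes are epithelial cells that wrap the glomerular capillaries in the kidney with foot processes. In them the dimer of the Itga3 and Itgb1 chains is the main receptor for the laminin of the glomerular basement membrane, and the tetraspanin encoded by Cd151 is its partner in the membrane. Cd151 is counted among the adaptors here, although its product lies in the membrane and not on its inner side.

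RNA came from mouse podocytes kept in culture, which had been left to differentiate for 11 days at 37 °C. Of the 9 arrays, 3 are of podocytes treated for 16 hours with both 2.5 µM thapsigargin and 10 µM forskolin, 3 of podocytes treated for 16 hours with 2.5 µM thapsigargin, and 3 of podocytes given DMSO as vehicle. Thapsigargin inhibits the calcium pump of the endoplasmic reticulum (ER) and so sets off ER stress, and forskolin activates adenylyl cyclase and raises cAMP. No analysed group received forskolin alone, and the labels name neither the podocyte line nor its origin. The arrays of a group are called biological replicates, but what was separate about them is not said, so the p-values speak only of the spread among arrays.

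Values are log2 values from the authors' RMA (robust multi-array average) processing, and a difference of 1 is a 2-fold difference. Pearson correlations between arrays over all 41345 probe sets were 0.989 to 0.993 within groups and 0.966 to 0.992 between groups, and the array medians were 5.80 to 5.88. A member is called dim here where all 3 group means lay under 5.84, the median of all probe sets. That held for 6 members, the alpha chain genes Itga2, Itga4 and Itga8, the beta chain genes Itgb2 and Itgb6, and the kindlin gene Fermt1. Changes of dim probe sets tend to be understated. Changes are given with limma standard errors, and a gene is said to have risen or fallen where its limma p, adjusted over all 22180 genes by Benjamini-Hochberg, was below 0.05.

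Markers of cell types were set beside the members, and 35% of all genes passed the test with thapsigargin against DMSO. Of 10 podocyte markers 8 were measured, and on the thapsigargin arrays 4 of these (Plce1, Synpo, Podxl and Wt1) fell and Cd2ap rose against DMSO, or 62.5% of the list. The called share was 37.5% of tubular, 28.6% of endothelial, 28.6% of mesangial and pericyte and 14.3% of leukocyte markers, and the median log2 changes of the 5 lists lay between -0.26 and -0.01. The list means given next rest on few genes, such as Plce1 (-3.45), Cdh16 (-3.37) and Aqp1 (-3.24). The mean log2 value of the podocyte markers per array was 6.99 to 7.0 with thapsigargin and forskolin, 7.20 to 7.22 with thapsigargin and 8.09 to 8.11 with DMSO. For 8 tubular markers this mean was 6.65 to 6.80 with thapsigargin and forskolin, 6.63 to 6.70 with thapsigargin and 7.65 to 7.71 with DMSO, and of these Cdh16, Aqp1 and Lrp2 fell with thapsigargin. For 7 mesangial and pericyte markers it was 7.11 to 7.22 with thapsigargin and forskolin, 6.71 to 6.78 with thapsigargin and 7.02 to 7.11 with DMSO, and Pdgfrb and Mcam fell with thapsigargin. For 7 leukocyte markers it was 5.54 to 5.59 with thapsigargin and forskolin, 5.39 to 5.48 with thapsigargin and 5.65 to 5.79 with DMSO, with Ptprc under the lower quartile of the arrays in every group and Csf1r lower with thapsigargin. For 7 endothelial markers it was 5.88 to 5.92 with thapsigargin and forskolin, 5.87 to 5.98 with thapsigargin and 6.08 to 6.17 with DMSO, with Emcn under the lower quartile in every group and Ehd3 and Tie1 lower with thapsigargin, Tie1 not without DMSO replicate 2 (adjusted p = 0.0583) or thapsigargin replicate 3 (adjusted p = 0.0587). When forskolin was added to thapsigargin, Mcam rose by 2.58 on the log2 scale, Csf1r by 0.82, Synpo by 0.55, Cdh16 by 0.54 and Pdgfrb by 0.38. Plce1 fell by 1.29, Podxl by 0.79 and Cd2ap by 0.25, the call of Cd2ap being lost without replicate 2 or 3 of either group (adjusted p 0.0512 to 0.0549). The part of these markers in the results below was not tested, and in RNA from whole cultures fewer cells of a type and less RNA per cell cannot be told apart.

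Thapsigargin against DMSO asked which of these transcripts differ after thapsigargin treatment. The adhesion genes fell more often than they rose. Among integrin chains, Itga1, Itga9, Itga3 and Itgav fell most, and among adaptors the tensin gene Tns1 fell 4.13-fold. Of the 33 measured members 19 fell, 4 rose and 10 did not pass the test. Over all genes 35% passed the test, with 16.9% lower and 18.2% higher. In every comparison the share over all genes includes dim genes, whereas 27 of the 33 members were not dim. All 19 members that fell and 4 that rose were among those 27. The members are therefore not set against genes of like level, and how much of the gap goes with level was not tested. Of the members 4 fell by 1 or more on the log2 scale and 0 rose by as much, beside 2.94% and 3.08% of all genes. The median log2 change was -0.35 over the 19 integrin chains and -0.57 over the 14 adaptors, beside -0.04 over all genes. The arrays of the groups did not overlap downward for 21 of the 33 members and upward for 5, beside 22.3% and 21.6% of all genes.

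Among the alpha chains, 5 of 11 fell and 2 rose (45.5% and 18.2%, beside 16.9% and 18.2% of all genes). Itga1 encodes a collagen-binding chain that pairs with the Itgb1 chain. Its log2 values were 8.80, 8.77 and 8.95 with thapsigargin, against 10.61, 10.69 and 10.73 with DMSO. All thapsigargin arrays lay far below all DMSO arrays, with a log2 change of -1.84 ± 0.06 (limma adjusted p = 3.3e-08). Itga9, whose chain binds tenascin and several other ligands, had 7.82, 8.05 and 7.97 with thapsigargin, against 9.13, 9.48 and 9.36 with DMSO. The groups were apart, and the log2 change was -1.38 ± 0.10 (limma adjusted p = 3.48e-06). Itga3, the laminin-binding chain of podocytes, had 10.81, 10.80 and 10.90 with thapsigargin, against 11.91, 11.87 and 11.88 with DMSO. It was 2.07-fold lower (limma adjusted p = 4.35e-07), with a gap between the groups several times the spread within them.

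Itgav, whose chain binds RGD-containing proteins such as vitronectin, had 10.46, 10.50 and 10.50 with thapsigargin, against 11.42, 11.56 and 11.43 with DMSO. The fall was 1.98-fold (limma adjusted p = 5.63e-07), and no array of a group reached the other. A second probe set of Itgav, with a mean of 4.45 and so near the lower quartile of the arrays, differed by -0.10 (limma adjusted p = 0.31 over all probe sets with 1 symbol). Itga6, the chain of another laminin receptor, had 8.57, 8.58 and 8.58 with thapsigargin, against 8.85, 9.04 and 9.12 with DMSO. The groups were apart by less than those of Itga3, with a log2 change of -0.43 ± 0.08 (limma adjusted p = 0.00159).

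Itga7 moved the other way. It encodes a laminin-binding chain best known from muscle, and its values were 7.62, 7.62 and 7.50 with thapsigargin, against 7.34, 7.14 and 7.15 with DMSO. The rise was 1.29-fold (limma adjusted p = 0.00251), and the lowest thapsigargin array lay above the highest DMSO array. Itga5, whose chain binds fibronectin, rose by 0.24 ± 0.07 (limma adjusted p = 0.0215), but this call was lost without DMSO replicate 2 or 3 or thapsigargin replicate 2 or 3 (adjusted p 0.0534 to 0.0829) and after another quantile normalization (adjusted p = 0.0692). Itga2, Itga4, Itga8 and Itga11 did not pass, with log2 changes of -0.26, -0.12, -0.26 and 0.21. Itga2, Itga4 and Itga8 are dim. The difference of Itga11 passed when arrays were centred on their medians (adjusted p = 0.019) or quantile-normalized again (0.0282), when dim genes were left out (0.0284), and without DMSO replicate 1 (0.0296) or thapsigargin replicate 3 (0.0461). That of Itga2 passed without DMSO replicate 3 (adjusted p = 0.0215).

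No beta chain fell as far as Itga1, Itga9, Itga3 or Itgav. The median log2 change was nevertheless lower over the 8 beta chains (-0.39) than over the 11 alpha chains (-0.26). Of the beta chains 4 (50%) fell and 0 rose with limma, beside 16.9% and 18.2% of all genes. At an unadjusted p below 0.05 still 0 were higher. Itgb8, whose chain pairs with the Itgav chain and activates latent TGF-beta, had 7.26, 7.27 and 7.43 with thapsigargin, against 7.75, 7.99 and 8.0 with DMSO, a log2 change of -0.59 ± 0.08 (limma adjusted p = 0.000215). Itgb5, another partner of the Itgav chain, had 11.36, 11.37 and 11.36 with thapsigargin, against 11.92, 11.90 and 11.90 with DMSO, a log2 change of -0.54 ± 0.05 (limma adjusted p = 1.08e-05). In each of these genes every thapsigargin array lay below every DMSO array. Itgb3, the vitronectin receptor chain that also pairs with Itgav, had 6.28, 6.47 and 6.45 with thapsigargin, against 6.91, 6.67 and 6.91 with DMSO, a log2 change of -0.43 ± 0.08 (limma adjusted p = 0.00263). Itgb1, the common partner of most alpha chains listed here, had 12.01, 12.03 and 12.03 with thapsigargin, against 12.42, 12.47 and 12.48 with DMSO, a 1.35-fold fall (limma adjusted p = 5.97e-05). Spreads of Itgb1 within groups were small beside this gap. Itgb2, Itgb4, Itgb6 and Itgb7 did not pass, with log2 changes of -0.01, -0.06, -0.35 and -0.20. The dim Itgb6 passed without DMSO replicate 3 (adjusted p = 0.0353) or combined replicate 1 (adjusted p = 0.0343), and without DMSO replicate 3 the count of integrin chains that fell was 11 in place of 9.

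**Figure D1:**
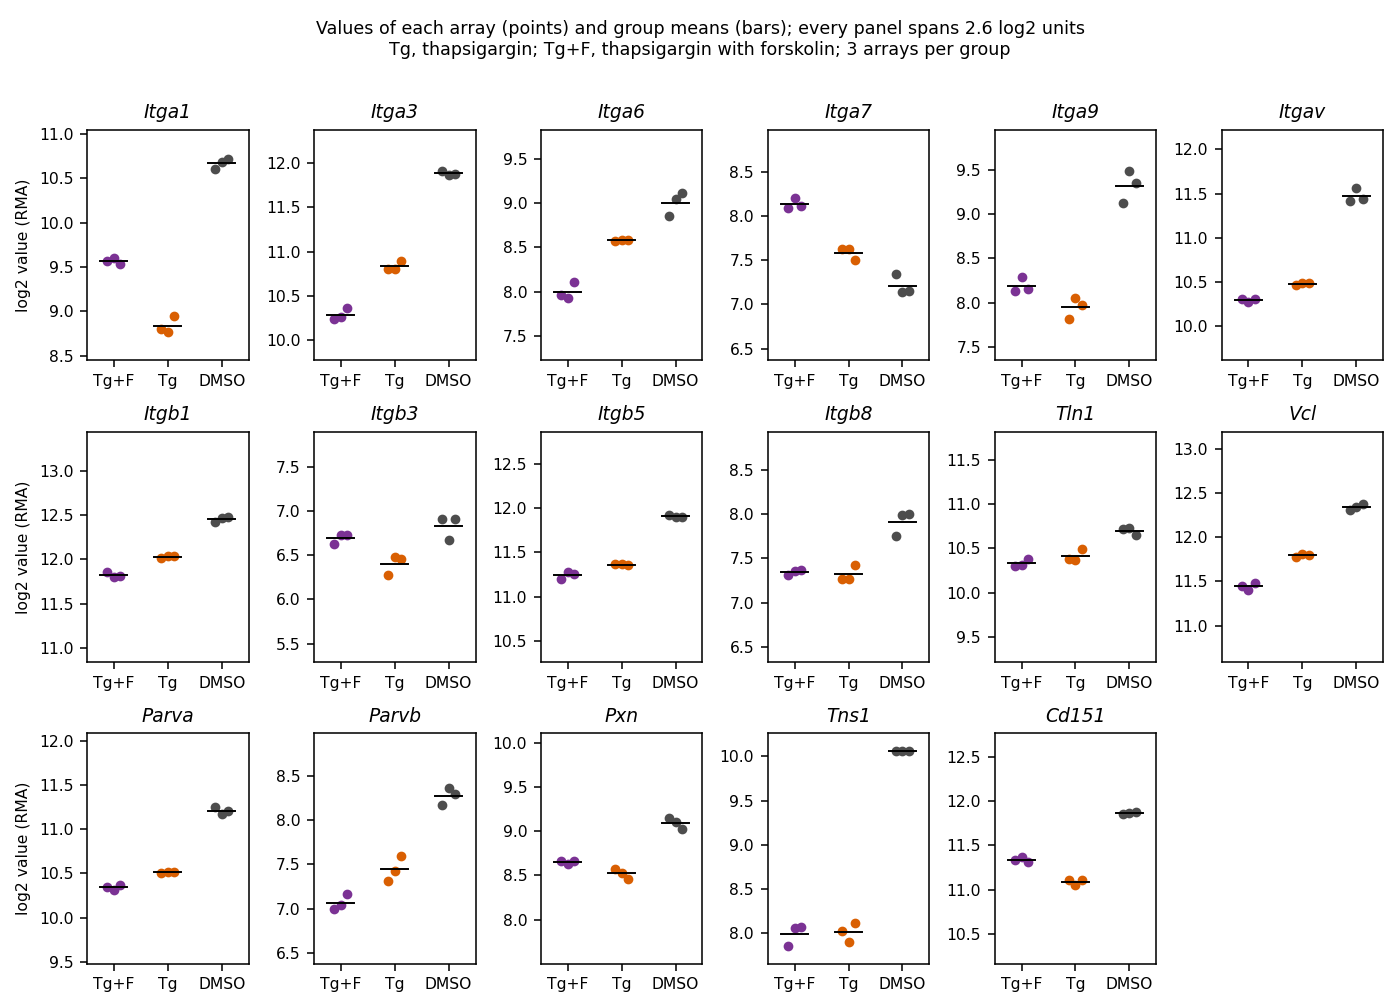
Log2 values of every array (points) and group means (bars) for 17 members, with thapsigargin plus forskolin, thapsigargin and DMSO from left to right and 3 arrays per group. Every panel spans the same height on the log2 axis, so that the wide gap of Tns1 and Itga1 to DMSO and the narrow one of Tln1 can be compared by eye.

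Among the 14 adaptors, 10 fell and 2 rose (71.4% and 14.3%, beside 16.9% and 18.2% of all genes). Tns1 encodes a tensin, which binds the beta tail and actin. Its values were 8.03, 7.91 and 8.12 with thapsigargin, against 10.06, 10.06 and 10.06 with DMSO. This was the largest fall among the members (log2 change -2.05 ± 0.08, limma adjusted p = 5.52e-08), and its relative Tns3 fell by 0.78 ± 0.06. The parvin genes, which encode actin-binding partners of integrin-linked kinase, fell as well. Parvb had 7.31, 7.43 and 7.60 with thapsigargin, against 8.17, 8.36 and 8.30 with DMSO, and Parva had 10.50, 10.52 and 10.52 with thapsigargin, against 11.25, 11.18 and 11.20 with DMSO. The log2 changes were -0.83 ± 0.09 for Parvb and -0.70 ± 0.05 for Parva, and neither gene's groups overlapped.

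Cd151, the laminin receptor's tetraspanin partner, had 11.10, 11.05 and 11.11 with thapsigargin, against 11.86, 11.87 and 11.88 with DMSO, a 1.72-fold fall (limma adjusted p = 1.11e-06). Pxn, which encodes the scaffold paxillin, had 8.57, 8.53 and 8.46 with thapsigargin, against 9.15, 9.11 and 9.02 with DMSO, a log2 change of -0.57 ± 0.05. Vcl, which encodes vinculin, the link between talin and actin, had 11.78, 11.80 and 11.80 with thapsigargin, against 12.30, 12.34 and 12.37 with DMSO, a log2 change of -0.54 ± 0.05. All 3 genes showed groups that were clearly apart. The talin gene Tln1 changed less than these, with 10.38, 10.37 and 10.49 with thapsigargin, against 10.72, 10.73 and 10.65 with DMSO (log2 change -0.28 ± 0.06, limma adjusted p = 0.00284), while Tln2 fell by 0.62 ± 0.06. The kindlin gene Fermt2 fell by 0.56 ± 0.05, and the dim Fermt1 differed by -0.03 ± 0.10.

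The adaptors that did not fall were Bcar1, Zyx, Lims1 and the dim Fermt1. Bcar1, which encodes the Cas scaffold that signals to the GTPase Rac, differed by -0.01 ± 0.06, with an interval from -0.15 to 0.14. Zyx, which encodes the actin-regulating protein zyxin, rose by 0.16 ± 0.06 (limma adjusted p = 0.0498), and Lims1, which encodes PINCH, rose by 0.17 ± 0.05 (limma adjusted p = 0.0265). Neither rise was stable. That of Zyx was lost without any array other than DMSO replicate 1 (adjusted p 0.0559 to 0.136) and that of Lims1 without DMSO replicate 1 or 3 or any thapsigargin array (adjusted p 0.0518 to 0.0832), so that the count of adaptors that rose was 0 or 1 in those fits. After another quantile normalization 0 adaptors rose and 10 fell, with adjusted p of 0.252 for Zyx and 0.164 for Lims1.

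The bases before the start of 3 adaptor genes are shown because these genes fell with thapsigargin and hold GC box or CArG box letters. Both kinds of letters were in a larger share of the promoter windows of members than of all windows, as given below. The sequences are RefSeq's on GRCm38.p6 and run 5′ to 3′ for 250 bases up to the start. They lie at chr1:74124549-74124798 on the minus strand for Tns1, at chr14:20929148-20929397 on the plus strand for Vcl, and at chr14:45530066-45530315 on the minus strand for Fermt2. Capitals mark the GC box in Tns1 and the CArG box, the site known to be bound by the actin-regulated factor SRF, in Vcl and Fermt2. The sequences of Vcl and Fermt2 hold GC boxes too, which are left in lower case.
Tns1: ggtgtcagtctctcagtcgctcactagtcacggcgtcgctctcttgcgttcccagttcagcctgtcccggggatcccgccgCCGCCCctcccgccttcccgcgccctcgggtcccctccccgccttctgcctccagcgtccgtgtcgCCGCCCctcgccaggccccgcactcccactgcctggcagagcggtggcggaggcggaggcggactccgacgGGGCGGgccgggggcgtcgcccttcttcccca
Vcl: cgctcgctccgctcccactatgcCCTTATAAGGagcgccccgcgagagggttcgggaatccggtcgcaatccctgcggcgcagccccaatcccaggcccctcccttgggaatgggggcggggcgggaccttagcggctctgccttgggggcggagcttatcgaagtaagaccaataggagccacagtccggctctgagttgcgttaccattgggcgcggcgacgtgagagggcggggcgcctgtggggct
Fermt2: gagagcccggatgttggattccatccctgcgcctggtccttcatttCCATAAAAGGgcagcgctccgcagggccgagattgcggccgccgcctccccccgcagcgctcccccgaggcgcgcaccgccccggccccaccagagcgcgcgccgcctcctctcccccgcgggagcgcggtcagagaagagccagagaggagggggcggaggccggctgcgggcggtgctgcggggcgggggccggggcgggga

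Windows of 250 bases before to 50 after a start were given for 27 of the 36 members, 34 windows in all, and were searched on both strands. A CArG box was in 3 of the 34 windows (8.82%), those of Vcl, Fermt2 and 1 of the windows of Itgb6, beside 1.63% of all 32851 windows. The GC box, GGGCGG, was in 20 (58.8%), beside 35.7% of all windows, and the MCAT element, CATTCC, in 3 (8.82%), beside 14.7%. The windows with a GC box belonged to 18 members. These included members that fell, but also Itga5, which rose, and Bcar1, Zyx, Lims1 and Fermt1, the adaptors that did not fall. The AP-1 letters TGANTCA were in 3 (8.82%), those of Itga3, Itga9 and Zyx, beside 7.81%. The core of the cAMP response element, TGACG, was in 6 (17.6%), beside 20.8%, and the full element TGACGTCA, which contains that core, in 0, beside 1.79%. The ER stress element, CCAAT and CCACG with 9 bases between them, was in 0, beside 0.119%. A match describes letters in the window and nothing more.

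Thapsigargin with forskolin against thapsigargin alone asked what forskolin added, and here the members moved in both directions. Itga1, Tns3, Itga7, Tln2 and Cd151 rose, and Itga6, Itga3, Bcar1, Itga5, Parvb, Vcl and Itgb1 fell. Thus 5 of 33 members rose and 7 fell, beside 3.7% and 4.17% of all genes, with 7.87% of all genes called in either direction, and 21 did not pass. By class, 2 integrin chains rose and 4 fell, and 3 adaptors rose and 3 fell. With each array centred on its median 4 members rose and 9 fell, with 2 adaptors higher and 5 lower. The median log2 change was -0.10 over the integrin chains and -0.05 over the adaptors, beside -0.01 over all genes. The largest changes stayed under 1 on the log2 scale, while 0.271% of all genes rose and 0.131% fell by at least that much. The arrays of the groups did not overlap upward for 9 members and downward for 13, beside 12.1% and 14% of all genes. Values with thapsigargin alone, where not repeated, are those given above. These thapsigargin arrays also enter the comparison of thapsigargin with DMSO, with the opposite sign. Noise in them therefore moves the changes of these comparisons in opposite directions.

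The alpha chains of the laminin receptors took different directions. Itga3 had 10.24, 10.26 and 10.36 with thapsigargin and forskolin, lower than every array of thapsigargin alone (log2 change -0.55 ± 0.06, limma adjusted p = 0.00033). Itga6 had 7.96, 7.93 and 8.10 with the combined treatment, a change of -0.58 ± 0.08 (limma adjusted p = 0.00174). Itga7 had 8.09, 8.20 and 8.11 with the combined treatment, a rise of 0.55 ± 0.07 (limma adjusted p = 0.00157). In each of these genes the arrays with forskolin lay outside the range of those without it. Itga1, the collagen-binding chain, had 9.57, 9.60 and 9.54 with the combined treatment and so lay above the thapsigargin arrays by 0.73 ± 0.06 (limma adjusted p = 0.000121). These values of Itga1 were still below all DMSO arrays. Itga5 fell by 0.48 ± 0.07 (limma adjusted p = 0.00289), to a mean of 9.69 with the combined treatment, against 10.17 with thapsigargin.

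Itgav had 10.31, 10.27 and 10.31 with the combined treatment, and its change of -0.19 ± 0.05 did not pass (limma adjusted p = 0.0768), although the groups did not overlap. It passed with an intensity trend and robust prior (adjusted p = 0.00779), when the 6 arrays compared were fitted alone (adjusted p = 0.0435) and when dim genes were left out (adjusted p = 0.0268). Over all alternative settings its change ran from -0.22 to -0.06, with limma adjusted p up to 0.681. The low second probe set of Itgav differed by 0.07 (limma adjusted p = 0.655 over all probe sets with 1 symbol). Itga9 differed by 0.25 ± 0.10 (limma adjusted p = 0.212). Of the beta chains, Itgb1 alone passed the test, with 11.85, 11.80 and 11.81 with the combined treatment and a change of -0.21 ± 0.05 (limma adjusted p = 0.0271). This call was lost without any 1 of the 6 arrays compared (adjusted p 0.0525 to 0.103).

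The partners of the Itgav chain did not pass when forskolin was added. Itgb3 had 6.63, 6.73 and 6.73 with the combined treatment, all above the thapsigargin arrays, with a difference of 0.29 ± 0.08 (limma adjusted p = 0.0711), and it passed without DMSO replicate 2 (adjusted p = 0.0403) or without dim genes (adjusted p = 0.0295). Itgb5 had 11.20, 11.28 and 11.25 with the combined treatment, a difference of -0.12 ± 0.05 whose interval ran from -0.22 to -0.01 and which passed with an intensity trend and robust prior (adjusted p = 0.0124). Itgb8 had 7.31, 7.35 and 7.37 with the combined treatment, within the spread of the thapsigargin arrays, a difference of 0.02 ± 0.08 with an interval from -0.15 to 0.20.

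Among adaptors the tensins differed from each other. Tns3 rose by 0.60 ± 0.06 (limma adjusted p = 0.00022), to a mean of 9.87 with the combined treatment, against 9.27 with thapsigargin, whereas Tns1 had 7.85, 8.05 and 8.07 with the combined treatment and differed by -0.02 ± 0.08, with an interval from -0.20 to 0.15. The combined and thapsigargin arrays of Tns1 overlapped, and all of them lay well below DMSO. Bcar1, which had not passed against DMSO with thapsigargin alone, fell by 0.50 ± 0.06 (limma adjusted p = 0.00151). Vcl had 11.45, 11.40 and 11.48 with the combined treatment, a fall of 0.35 ± 0.05 (limma adjusted p = 0.0023). Cd151 had 11.33, 11.37 and 11.31 with the combined treatment, a rise of 0.25 ± 0.05 (limma adjusted p = 0.0114) that was lost without replicate 2 of either group (adjusted p 0.0529 to 0.0547).

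Parvb had 7.0, 7.04 and 7.17 with the combined treatment, a fall of 0.38 ± 0.09 (limma adjusted p = 0.0304). Tln2, the second talin gene, rose by 0.26 ± 0.06 (limma adjusted p = 0.0357). The call of Parvb was lost without thapsigargin replicate 2 or 3 or combined replicate 1 or 2 (adjusted p 0.0824 to 0.103) and in a fit of the 6 arrays (adjusted p = 0.0504), and that of Tln2 without DMSO replicate 2, thapsigargin replicate 1 or 2 or combined replicate 2 or 3 (adjusted p 0.0557 to 0.127). Tln2 was also lost in a fit of the 6 arrays (adjusted p = 0.0515) and under both rescalings, with adjusted p of 0.0806 when arrays were centred on their medians and 0.0517 when they were quantile-normalized again. Without replicate 2 of the thapsigargin or of the combined group, 1 adaptor rose in place of 3. Tln1, Parva and Pxn did not pass. Tln1 had 10.31, 10.31 and 10.39, Parva had 10.35, 10.32 and 10.37, and Pxn had 8.67, 8.63 and 8.66 with the combined treatment. The differences were -0.08 ± 0.06, -0.17 ± 0.05 and 0.13 ± 0.05, and the Parva and Pxn arrays did not overlap with those of thapsigargin. Zyx, Lims1 and Fermt2 differed by -0.18, -0.16 and 0.14, and the remaining integrin chains, Itga2, Itga4, Itga8, Itga11, Itgb2, Itgb4, Itgb6 and Itgb7, by between -0.25 and 0.09, none of them past the threshold. Parva and Zyx passed as lower with an intensity trend and robust prior (adjusted p of 0.00368 and 0.00758), with arrays centred on their medians (0.0395 and 0.0421) and without dim genes (0.0205 and 0.0336), and Parva also without DMSO replicate 1 (0.0447). Lims1 passed as lower without dim genes (adjusted p = 0.0446). Fermt2 passed as higher with the trend (adjusted p = 0.0227) and without dim genes (adjusted p = 0.0436).

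**Figure D2:**
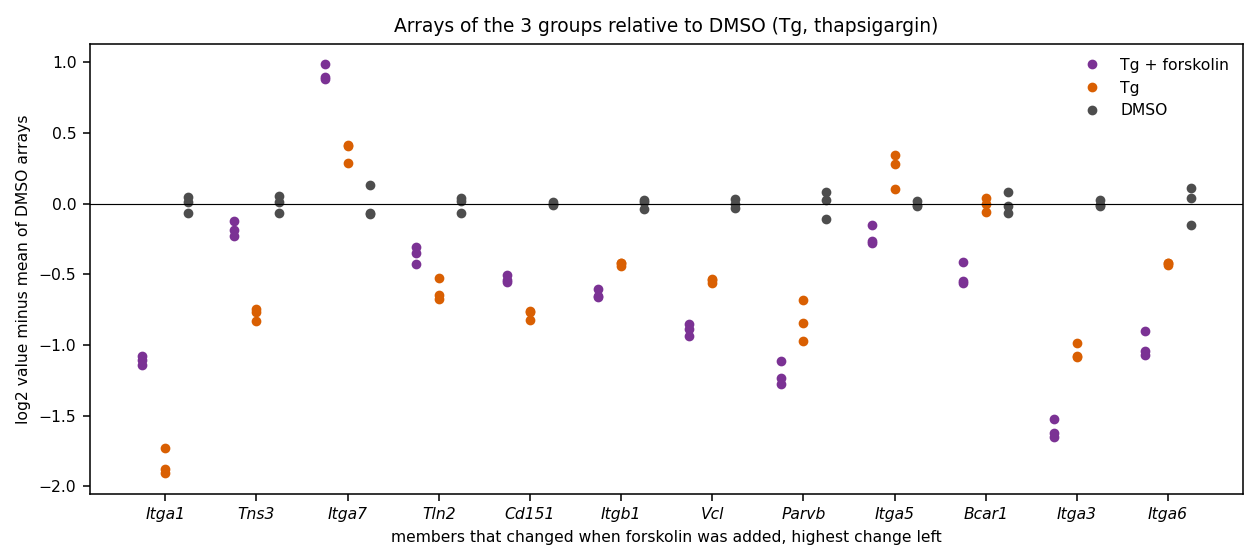
Log2 value minus the mean of the DMSO arrays for each array of the 12 members that changed when forskolin was added, with thapsigargin plus forskolin, thapsigargin and DMSO from left to right for each gene. The arrays with forskolin lie above those with thapsigargin alone for the 5 genes on the left and below them for the 7 on the right.

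Thapsigargin with forskolin against DMSO gave the state of the adhesion genes under both agents. Tns1, Itga3, Parvb and Itgav were lowest relative to DMSO, and Itga7 was the 1 member that rose. Of 33 members 23 fell, 1 rose and 9 did not pass, beside 16.7% and 17.9% of all genes and 34.5% in either direction. Of the members 7 fell by 1 or more on the log2 scale and 0 rose by as much, beside 2.7% and 2.57% of all genes. The arrays did not overlap downward for 22 members and upward for 1, beside 21.2% and 21.4% of all genes. By class, 12 of 19 integrin chains fell and 1 rose, and 11 of 14 adaptors fell and 0 rose with limma, with 0 higher at an unadjusted p below 0.05 too. The median log2 change was -0.37 over the integrin chains and -0.43 over the adaptors, beside -0.04 over all genes. This comparison shares its DMSO arrays with the thapsigargin comparison and its treated arrays with the forskolin one, so it adds no independent evidence to either.

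With the combined treatment, the DMSO values being those given above, the log2 change was -2.07 ± 0.08 for Tns1, -1.60 ± 0.06 for Itga3 and -1.21 ± 0.09 for Parvb. Itga3 was thus 3.03-fold lower and Tns1 4.2-fold lower than with DMSO. Itgav, Itga9, Itga1 and Itga6 changed by -1.17 ± 0.05, -1.13 ± 0.10, -1.11 ± 0.06 and -1.0 ± 0.08. The low second probe set of Itgav differed by -0.02 (limma adjusted p = 0.81 over all probe sets with 1 symbol). Itga9 had 8.14, 8.29 and 8.15 with the combined treatment, well below DMSO. Among the beta chains Itgb5, Itgb1 and Itgb8 changed by -0.66 ± 0.05, -0.64 ± 0.05 and -0.57 ± 0.08, and Itgb3 differed by -0.13 ± 0.08 (limma adjusted p = 0.258). Itga7 rose 1.9-fold (limma adjusted p = 6.46e-06), with no overlap of its arrays.

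Some chains passed only narrowly or are dim. The epithelial chain genes Itgb6 and Itgb4, whose products pair with the Itgav chain and the Itga6 chain, fell by 0.59 ± 0.14 and 0.24 ± 0.06 (limma adjusted p = 0.00765 and 0.0112). Itga2, whose chain binds collagen, fell by 0.37 ± 0.11 (limma adjusted p = 0.0245), Itga5 fell by 0.23 ± 0.07 (limma adjusted p = 0.0284) and Tns3 fell by 0.18 ± 0.06 (limma adjusted p = 0.0333). The calls of Itga2, Itga5 and Tns3 were lost when single arrays were left out. For Itga2 these were DMSO replicate 1 or 2 and combined replicate 2 or 3 (adjusted p 0.0728 to 0.091), for Itga5 any DMSO array and combined replicate 1 or 2 (0.0533 to 0.0947), and for Tns3 DMSO replicate 1 or 3 and combined replicate 2 or 3 (0.0722 to 0.113). In a fit of the 6 arrays compared the adjusted p was 0.0544 for Itga2 and 0.0676 for Tns3. Of the other adaptors Vcl and Parva changed by -0.89 ± 0.05 and -0.86 ± 0.05, and Cd151, Bcar1, Pxn, Fermt2, Tln1 and Tln2 by -0.53, -0.51, -0.44, -0.42, -0.36 and -0.36. Zyx, Lims1 and the dim Fermt1 did not pass, with differences of -0.02, 0.02 and -0.03.

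**Figure D3:**
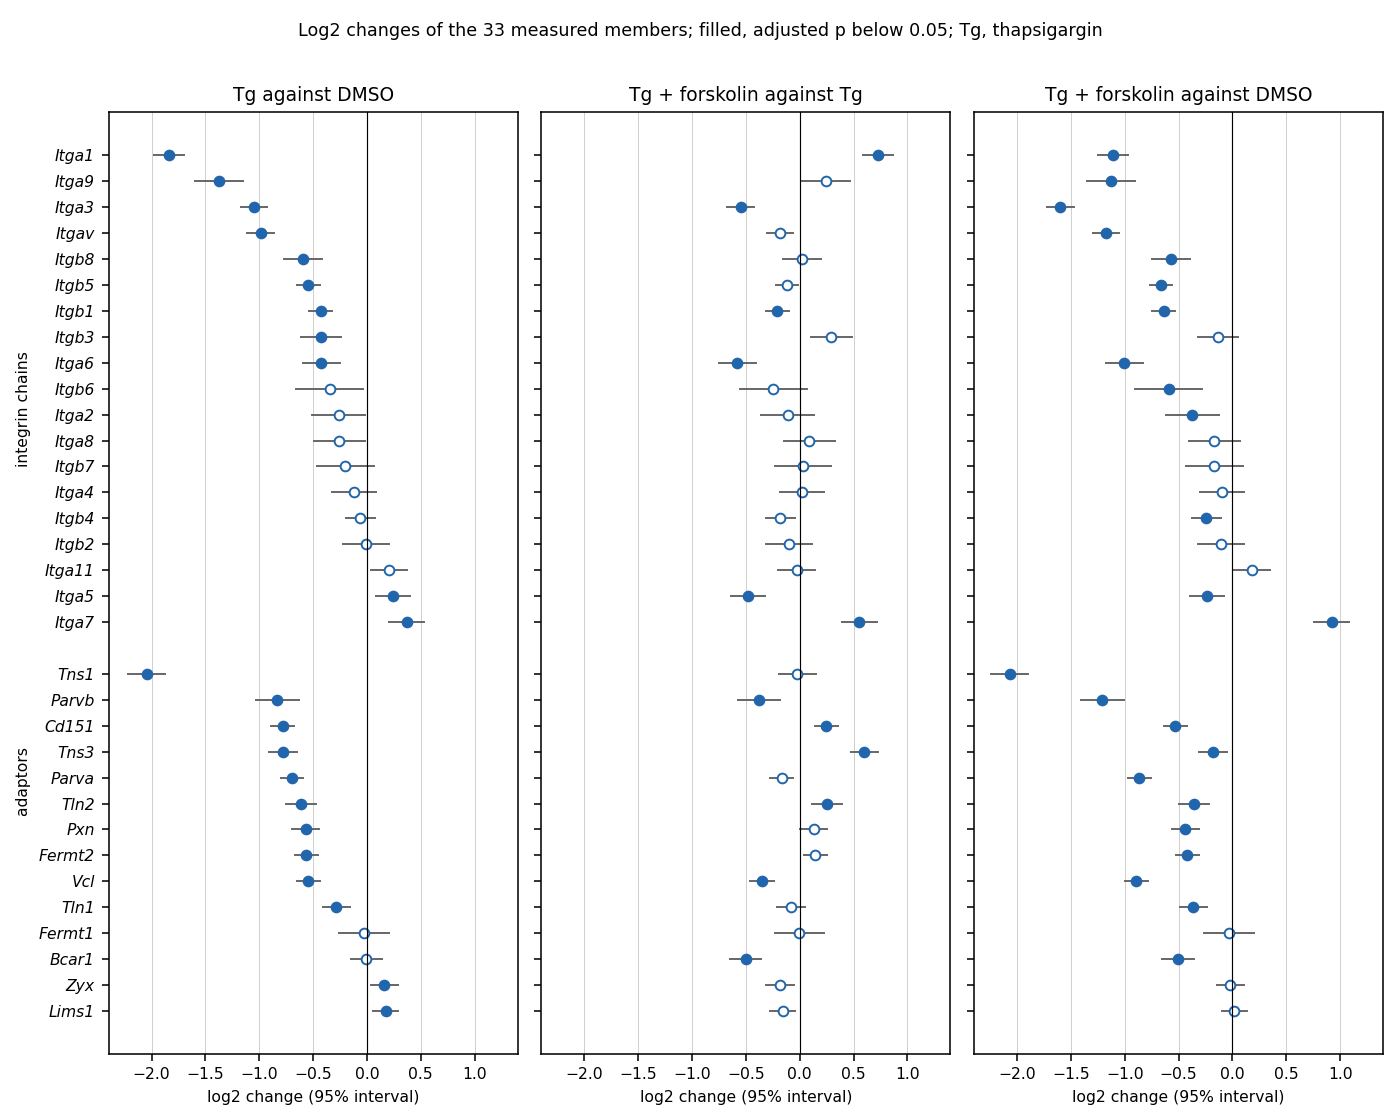
Log2 changes of the 33 measured members with 95% intervals from limma, for the 3 comparisons from left to right, with integrin chains above adaptors and each class ordered by the change with thapsigargin. Filled points passed at an adjusted p below 0.05, and most filled points lie left of 0 in the comparisons with DMSO, with Itga7 on the right in all 3 panels.

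Over the 3 comparisons as fitted above, 27 of the 33 measured members passed in at least 1 and 6 in none. The 6 were Itga4, Itgb2 and Itgb7, chains best known from leukocytes, Itga8, best known from mesangial cells, Itga11, a collagen-binding chain of fibroblasts that passed against DMSO under the other settings named, and the epithelial kindlin gene Fermt1. Of these Itga4, Itga8, Itgb2 and Fermt1 were dim. A p that misses the threshold does not show that a gene was unchanged.

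Genes around the members were described from 3 further lists. Of 27 other genes of the adhesion plaque 25 were measured, and with thapsigargin 13 fell and 4 rose against DMSO (median log2 change -0.21). These were 52% and 16% of the genes measured, beside 16.9% and 18.2% of all genes. Palld, which encodes the actin cross-linker palladin, had 9.04, 8.96 and 9.05 with thapsigargin, against 10.69, 10.64 and 10.65 with DMSO (-1.65 ± 0.07), and Kank2, whose product binds talin, changed by -1.13 ± 0.07. Tes, which encodes a LIM protein that binds zyxin, rose by 0.99 ± 0.09. The count of plaque genes that fell was between 9 and 15 over the alternative settings. When forskolin was added 8 (32%) fell and 1 (4%) rose, beside 4.17% and 3.7% of all genes. Over the settings between 4 and 11 fell, with 4 without combined replicate 1 and 5 without combined replicate 2 or thapsigargin replicate 1 or 3. The gene that rose was Tns2, another tensin, which had 10.51, 10.45 and 10.50 with the combined treatment, against 9.74, 9.59 and 9.74 with thapsigargin (0.80 ± 0.07, limma adjusted p = 9.22e-05). Enah, which encodes an actin filament elongator, fell by 0.60 ± 0.05, Pdlim7 by 0.49 ± 0.08, and Nexn, which encodes an actin-binding protein, by 0.67 ± 0.14, a call lost without thapsigargin replicate 1 or 3 or combined replicate 1 or 2 (adjusted p 0.0514 to 0.07).

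Among the matrix ligands of integrins every gene that passed the test had fallen. Vcam1, Icam1 and Tgfb1 are counted in this list, although their products are not matrix proteins. Of 24 listed 21 were measured, and 13 (61.9%) fell with thapsigargin, 6 (28.6%) when forskolin was added and 16 (76.2%) with both against DMSO. By limma 0 were higher in each comparison. Of all genes 16.9%, 4.17% and 16.7% were lower and 18.2%, 3.7% and 17.9% higher. At an unadjusted p below 0.05, 0, 4 and 0 were higher in these comparisons, and over the alternative settings at most 1 rose when forskolin was added. Npnt, which encodes nephronectin, a basement membrane ligand of the Itga8 chain, had 8.69, 8.79 and 8.92 with thapsigargin, against 11.57, 11.62 and 11.63 with DMSO (-2.81 ± 0.07, limma adjusted p = 7.16e-09). Vcam1, a ligand of the Itga4 chain, changed by -1.99 ± 0.15, Tgfb1, whose latent form binds Itgav dimers, by -1.23 ± 0.06 and the basement membrane collagen gene Col4a1 by -1.14 ± 0.06. When forskolin was added Tnc, which encodes the Itga9 ligand tenascin C, fell by 0.81 ± 0.06, Ccn2 by 0.63 ± 0.06, the laminin gene Lama5 by 0.49 ± 0.05 and Lamc1 by 0.49 ± 0.07. With both agents against DMSO Npnt, Vcam1, Lama5 and Postn changed by -2.66, -1.57, -1.45 and -1.16. Postn had low values, with a mean of 4.80 with both agents and 5.96 with DMSO, beside 5.84 for the median of all probe sets.

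The signalling genes of the adhesion were split. Of 26 listed 21 were measured, and with thapsigargin 6 rose and 5 fell (28.6% and 23.8%, beside 18.2% and 16.9% of all genes). Ptk2b, which encodes the kinase Pyk2, a relative of focal adhesion kinase, had 9.31, 9.30 and 9.31 with thapsigargin, against 10.88, 10.76 and 10.78 with DMSO (-1.50 ± 0.05, limma adjusted p = 4.73e-08). Apbb1ip, which encodes the Rap effector that brings talin to integrins, rose by 1.14 ± 0.05, the phosphatase gene Ptpn12 by 0.85 ± 0.05 and the Src-family kinase gene Fyn by 0.78 ± 0.05. When forskolin was added 3 rose and 2 fell (14.3% and 9.52%, beside 3.7% and 4.17% of all genes). Among them Apbb1ip changed by 0.35 ± 0.05 and Asap1, which encodes a GTPase-activating protein, by -0.48 ± 0.05. Rapgef1 fell by 0.31 ± 0.06, and Sharpin rose by 0.24 ± 0.05, a call lost without thapsigargin replicate 2 or 3 or combined replicate 1 or 3 (adjusted p 0.0606 to 0.0833). Fyn rose by 0.20 ± 0.05 (limma adjusted p = 0.0356), a call lost without any 1 of the 6 arrays compared (adjusted p 0.0853 to 0.115) and with arrays centred on their medians (0.0998). Where both calls were lost, 1 signalling gene was higher in place of 3.

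**Figure D4:**
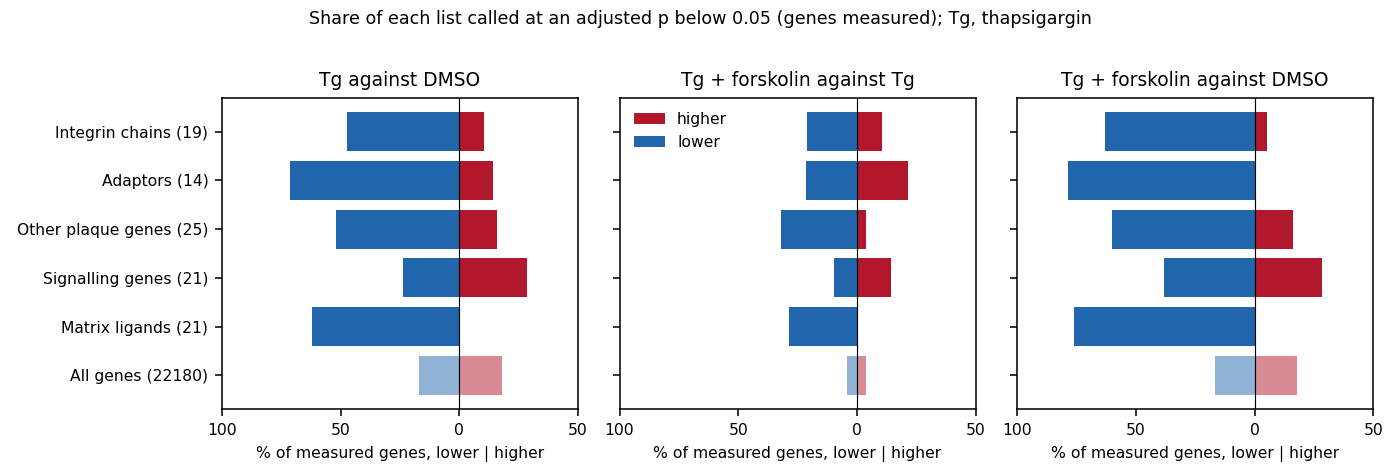
Share of the measured genes of each list that fell (left of 0) or rose (right of 0) at an adjusted p below 0.05, for the 3 comparisons from left to right, with all 22180 genes in the bottom row and the number measured in brackets. The matrix ligands have no bar to the right in any panel, and the adaptors have none with thapsigargin and forskolin against DMSO.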

How the data were processed

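RNA of 9 single-colour arrays was analysed from the deposited value table. Per the submitters' processing notes, the authors made these log2 values by RMA in the affy package. Versions, build and annotation: not given in the sources used here. RMA makes arrays alike, so changes are relative to the bulk of genes. Detection of single probe sets was not checked, because no scanner files were used here.

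Of 41345 probe sets, 23521 had 1 symbol, 1814 several and 16010 none. The 34 probe sets of members matched RefSeq Entrez IDs, with 0 symbols changed. Sample titles gave the groups. A single limma model held the 3 group means over all arrays (limma 3.58.1, R 4.3.3, 6 residual degrees of freedom, eBayes, two-sided). Its code was run on simulated data with independent noise and far fewer changed genes than were called here. That run therefore does not test the fit under the conditions of these data. Figures used matplotlib 3.10.9. Promoter windows are RefSeq's on GRCm38.p6.

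The members and lists were chosen with earlier results of these data known. Values of every array are given for members called and changed by 0.8 or more on the log2 scale and for 12 fixed members, of which Ilk and Ptk2 were not measured. Other lists give up to 4 called genes each. Alternatives were a fit of the arrays compared, an intensity trend with robust prior, another quantile normalization, centring on medians, the removal of dim genes (here, those with a mean over all arrays at or under 5.84), the mean of a gene's probe sets, a replicate block and each array left out. The number of arrays limits the precision.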

Additional observations from a re-analysis of the deposited data

How the results depend on the processing

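Under 7 alternatives and with each of 9 arrays left out, no called member reversed. Of the 23, 12 and 24 members called in the thapsigargin, added forskolin and combined comparisons, 20, 8 and 21 kept their call in every fit. Of the counts, adaptors higher with thapsigargin numbered 2, but 1 in a fit of the 6 arrays, 1 with the mean of the probe sets of a gene, 1 with the replicate number as a block and 0 after another quantile normalization. Adaptors lower when forskolin was added numbered 3, but 5 with an intensity trend and robust prior, 5 after centring on array medians and 6 among genes above the median level. With both agents against DMSO 1 integrin chain was higher, and 2 with the replicate block. With single arrays left out, integrin chains higher with thapsigargin numbered 1 to 3, adaptors higher 0 to 1, adaptors higher when forskolin was added 1 to 3, integrin chains higher with both agents 1 to 2, and all genes lower when forskolin was added 568 to 1101, against 924 (568 without thapsigargin replicate 3, 586 without thapsigargin replicate 1 and 600 without combined replicate 2). The cause was not tested. The replicate numbers were not used for pairing in the main fit, and not every same-numbered pair correlated over 0.1. Of these pairs 4 of 9 did (-0.07 to 0.25 over all 9), among them both replicate 3 pairs with DMSO and the one between the treatments. Pairs with different numbers ran from -0.30 to 0.25. Of 18 best matches 10 had the same number, and none of this shows that pairing was absent. With the replicate number as a block, Itga11 (adjusted p = 0.0128), Itga2 (0.047) and Itgb6 (0.0134) passed with thapsigargin, where 11 integrin chains fell in place of 9. Itga11 also passed with both agents against DMSO (0.0255). Zyx with thapsigargin (0.0605) and Itgb1 (0.0587), Tln2 (0.0683) and the signalling gene Fyn (0.0638) with forskolin added were lost.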

Other observations

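Some members had exactly equal values on several arrays. Itga4 had 4.80 on 6 of the 9 arrays, among them all 3 arrays with thapsigargin and forskolin, and Itgb7 had 5.83 on 4 arrays. Itga6, Itgav, Itgb1 and Fermt2 had 1 value on 2 arrays of a group. Any pair of arrays had identical values at 1022 to 1946 of all probe sets.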
